A study of Canis lupus familiaris with 6 samples.

Results

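The genes described here are the semaphorins and their plexin receptors, the ephrins and their Eph receptors, the Slit, Robo and netrin families, and the CRMP proteins that act downstream of semaphorins. They were chosen by gene name from the annotation of an Agilent canine 4x44K array, on which they have 66 of 43603 probes and make up 54 gene symbols. Of these genes, 45 have 1 probe, 6 have 2 and 3 (SEMA6C, PLXNB1 and EFNA1) have 3. The cells were 3 canine mammary tumor lines: CMT-U309 was established from a spindle cell tumor, CMT-U27 from a simple carcinoma, and P114 from an anaplastic cancer. Each line was grown alone (monoculture) or in the same medium as sorted myeloid-derived suppressor cells (MDSCs) from the blood of healthy dogs, which sat in a tissue culture insert (co-culture). The sample descriptions give at least 72 h of co-culture, while the methods give a shorter time. RNA of both conditions of a line was labelled with different dyes and hybridized together, once in each dye orientation, giving 6 arrays with 12 channels. Both arrays of a line thus hold identical RNA and count as 1 replicate, n is 3 cell lines, and a single line has no test of its own. Each line is 1 established culture on its own slide, so cell line and slide cannot be told apart.

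Semaphorins are secreted or membrane-bound ligands that bind plexins, often with a neuropilin as co-receptor, and steer growing axons, migrating cells and sprouting vessels by changing the actin cytoskeleton and integrin adhesion. Ephrins are membrane-anchored ligands of the Eph receptor tyrosine kinases, and both partners signal when cells touch. Slits repel cells through Robo receptors, and netrins attract or repel them through DCC and the UNC5 receptors. In the mammary gland these families take part in duct branching, adhesion and the separation of cell layers.

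The probes that the results turn on are 60 bases long and lie at the following places of canFam2, the dog genome build named in the files, which give no exon or intron position for them. The SEMA6C probes, in the order of transcription on the minus strand, lie at chr17:63279345-63279697 (upstream), chr17:63277349-63277578 (middle) and chr17:63274719-63274778 (downstream). The upstream and middle SEMA6C probes, the middle PLXNB1 probe and the EFNB1 probe each span more than their own length in the genome, so they do not match 1 continuous stretch of it. PLXNA4 has its probe at chr14:8055259-8055318 (plus strand), the middle PLXNB1 probe is at chr20:43680462-43680662 (plus strand), and EFNB1 is probed at chrX:56228354-56229202 (plus strand). For the receptors and ligands that separate the lines, the places are chr7:9824354-9824413 (PLXNA2, minus strand), chr16:9283681-9283740 (EPHA1, plus strand), chr31:11595358-11595417 (ROBO1, plus strand) and chr18:26404471-26404530 (SEMA3A, minus strand). The sequences below, read 5′ to 3′ with nothing set in capitals, are shown because the 3 SEMA6C probes gave different answers, the PLXNA4 and middle SEMA6C probes are the members that passed the thresholds, and the rest carry the differences between lines.
SEMA6C upstream: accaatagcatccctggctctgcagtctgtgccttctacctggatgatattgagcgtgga
SEMA6C middle: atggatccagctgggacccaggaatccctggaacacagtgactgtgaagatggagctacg
PLXNA4: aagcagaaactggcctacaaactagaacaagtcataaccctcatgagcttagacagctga
PLXNB1 middle: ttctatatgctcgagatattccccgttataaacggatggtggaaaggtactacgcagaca
EFNB1: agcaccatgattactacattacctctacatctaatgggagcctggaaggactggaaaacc
PLXNA2: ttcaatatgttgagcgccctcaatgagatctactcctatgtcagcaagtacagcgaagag
EPHA1: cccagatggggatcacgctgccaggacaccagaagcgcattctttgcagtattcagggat
ROBO1: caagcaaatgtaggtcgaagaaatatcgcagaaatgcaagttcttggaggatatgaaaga
SEMA3A: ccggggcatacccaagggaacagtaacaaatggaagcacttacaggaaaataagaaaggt
No pair of the 66 probes shared a run of more than 13 bases on either strand, and that run joined EPHB3 and EFNA1. Their G and C content lay between 35% and 73.3%.

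A spot is called well above background where the scanner software flags it so from its signal and the spread of the background. Between 53.0% and 81.0% of all spots passed this in a channel, and no spot was saturated. Of the 66 probes, 22 were well above background in all 12 channels, 34 in some and 10 in none (33.3% in all 12, against 47.6% of all probes). The 9 genes without a single such channel were DCC, DPYSL4, EFNB2, EPHA7, EPHB1, NTN3, PLXNA4, UNC5C and UNC5D. The probes of DPYSL4, EPHB1 and UNC5D also missed the filter on intensity and were not tested, which left 63 probes of 51 genes. The lines also differed in epithelial and mesenchymal markers, of which all 6 and all 8 tested passed. EPCAM, an epithelial adhesion protein, had a level of 15.42 in CMT-U27, 9.18 in P114 and 6.68 in CMT-U309, and vimentin (VIM), an intermediate filament of mesenchymal cells, had 10.19, 16.86 and 16.23. Not every marker had this order, since KRT14, an epithelial keratin, was lowest in CMT-U27 (11.05, against 11.86 in P114 and 12.58 in CMT-U309), THY1 was lowest in P114 (9.35, against 9.88 in CMT-U27), and PDGFRB had 6.70 in CMT-U309 and 6.77 in CMT-U27. Levels are log2 values of the processed signal, after scaling that gave all channels 1 median, and are compared between samples for 1 probe, not between probes.

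Many of the guidance genes differed in level between the 3 lines. Of the 63 probes tested, 34 (54.0%) differed in level between lines in limma's F test at an adjusted p under 0.05, against 55.1% of all probes, so the share was near that of the whole array. Between P114 and CMT-U27, 26 members (41.3%) differed, against 41.3% of all probes. Between P114 and CMT-U309 the count was 25 (39.7%, against 29.6%), and between CMT-U27 and CMT-U309 it was 36 (57.1%, against 46.6%). On the brightest probe of each gene, 27 of 51 genes (52.9%) differed, against 53.1% of all symbols tested. CMT-U309 was the highest line for 11 of these, P114 for 9 and CMT-U27 for 7, while CMT-U27 was the lowest for 14. Such splits were not counted over all symbols. The highest line was the same in co-culture and in monoculture for 26 of the 27 genes, and for 19 its 4 channels lay above all 8 of the other lines. These 27 genes had passed a test whose error is the uneven change of the lines between conditions. Their agreement between conditions was thus largely set by the choice of genes and is no separate support. The median range between the highest and lowest line was 1.06 on the log2 scale over the 51 genes and 0.89 over all symbols.

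Of the Robo receptors, all 3 probed members differed, and ROBO3 had the widest range of the set. ROBO3 had levels of 10.90 in co-culture and 10.89 in monoculture of P114, 3.81 and 4.45 in CMT-U27, and 8.87 and 9.22 in CMT-U309. P114 lay above CMT-U309, and both lay far above CMT-U27, where only 2 of 4 channels were well above background. P114 was higher than CMT-U27 by 6.76 ± 0.19 (SE) on the log2 scale (adjusted p = 3.52e-09) and higher than CMT-U309 by 1.85 ± 0.19 (SE) (adjusted p = 6.33e-05). ROBO1 was also lowest in CMT-U27 but highest in CMT-U309, with levels of 3.74 in co-culture and 3.54 in monoculture of P114, 2.78 and 1.08 in CMT-U27, and 7.64 and 7.55 in CMT-U309. It was well above background in all 4 channels of CMT-U309 and in none of the other lines, which made CMT-U309 at least 10-fold higher than P114 and at least 13.5-fold higher than CMT-U27 (adjusted p = 7.06e-05 and 2.31e-06). ROBO2 was likewise well above background in CMT-U309 alone, at 2.11 in co-culture and 2.33 in monoculture of P114, 2.82 and 2.30 in CMT-U27, and 5.82 and 5.89 in CMT-U309. CMT-U309 was at least 2.84-fold higher than P114 and at least 3.82-fold higher than CMT-U27 (adjusted p = 6.66e-05 and 5.33e-05). The Slit genes SLIT1 and SLIT2 did not pass (adjusted p = 0.5 and 0.17), and neither was well above background in any P114 channel.

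**Figure D1:**
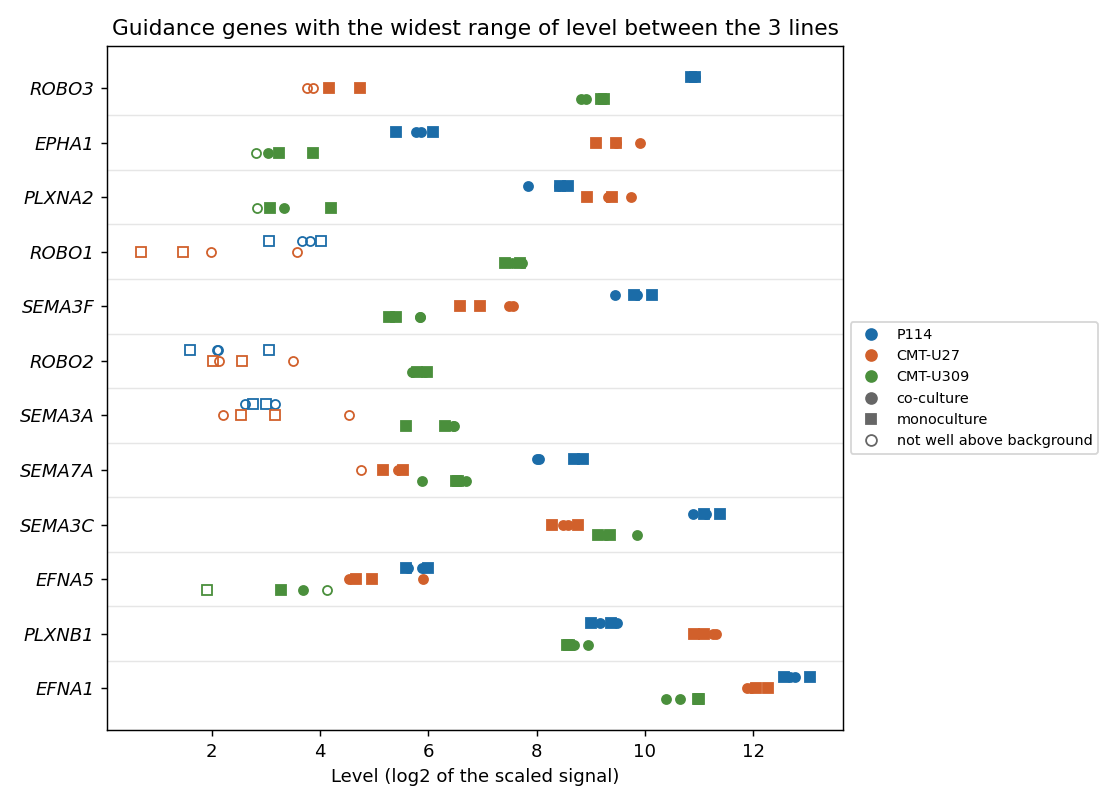
Level (log2 of the scaled signal, horizontal axis) of the 12 guidance genes with the widest range between cell lines, with circles for co-culture and squares for monoculture channels, and open symbols where the spot was not well above background. ROBO1, ROBO2 and SEMA3A have filled symbols in CMT-U309 alone, while ROBO3 is high in P114 and CMT-U309 and EPHA1 is highest in CMT-U27.

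Among the secreted semaphorins, 3 of 5 genes differed. SEMA3A, a repellent of axons and endothelial cells, joined ROBO1 and ROBO2 in being well above background in the 4 CMT-U309 channels only, with levels of 2.89 in co-culture and 2.88 in monoculture of P114, 3.37 and 2.86 in CMT-U27, and 6.46 and 5.95 in CMT-U309. CMT-U309 was at least 3.7-fold higher than P114 and at least 4.67-fold higher than CMT-U27 (adjusted p = 5e-05 and 3.36e-05). No other gene of the set had this pattern. SEMA3F and SEMA3C, which signal through neuropilins, were instead highest in P114. SEMA3F had levels of 9.66 in co-culture and 9.97 in monoculture of P114, 7.53 and 6.76 in CMT-U27, and 5.85 and 5.34 in CMT-U309, and P114 exceeded CMT-U309 by 4.22 ± 0.25 (SE) (adjusted p = 1.16e-06). SEMA3C had levels of 11.01 in co-culture and 11.25 in monoculture of P114, 8.53 and 8.52 in CMT-U27, and 9.56 and 9.24 in CMT-U309, and P114 exceeded CMT-U27 by 2.60 ± 0.16 (SE) (adjusted p = 9.4e-07). The other SEMA3C probe gave the same order of lines, with P114 above CMT-U27 by 2.56 ± 0.19 (SE). Of the neuropilins, which are no members of the set, NRP2 had a level of 11.14 in P114 against 8.99 for CMT-U27 and 9.69 for CMT-U309, while NRP1 had 8.10, 7.78 and 7.80 and did not pass (adjusted p = 0.314).

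Of the 12 membrane semaphorins tested, 6 differed on their brightest probe. SEMA7A, a membrane-anchored ligand that binds integrins as well as plexin C1, had levels of 8.03 in co-culture and 8.78 in monoculture of P114, 5.10 and 5.35 in CMT-U27, and 6.29 and 6.53 in CMT-U309. P114 was higher than CMT-U27 by 3.17 ± 0.21 (SE) (adjusted p = 1.51e-06). SEMA4C, a ligand of plexin B2, was highest in CMT-U309, at 9.76 against 8.39 in P114 and 8.07 in CMT-U27 (adjusted p = 1.61e-05), and its P114 and CMT-U27 levels did not pass the test of their difference (adjusted p = 0.109). SEMA6B, a ligand of A-type plexins, was higher in CMT-U27 (9.02) than in P114 (8.35) and CMT-U309 (8.40), and SEMA4A spread from 7.25 in CMT-U309 to 7.96 in CMT-U27 (adjusted p = 0.00611 and 0.0144). SEMA4D, the ligand of plexin B1, had 8.66, 8.58 and 8.97 in P114, CMT-U27 and CMT-U309 and did not pass (adjusted p = 0.139), nor did SEMA6A with 8.78, 8.63 and 8.71 (adjusted p = 0.67).

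Of the 4 plexin receptors tested, PLXNA2 and PLXNB1 differed, and both were highest in CMT-U27 and lowest in CMT-U309. PLXNA2, a receptor of class 3 and class 6 semaphorins, had levels of 8.13 in co-culture and 8.51 in monoculture of P114, 9.54 and 9.16 in CMT-U27, and 3.09 and 3.63 in CMT-U309. CMT-U27 exceeded CMT-U309 by 5.99 ± 0.24 (SE) (adjusted p = 3.35e-08), and P114 exceeded it by 4.96 ± 0.24 (SE) (adjusted p = 2.94e-07). The dimmer PLXNA2 probe also put CMT-U309 lowest, by 1.85 ± 0.36 (SE) under CMT-U27 (adjusted p = 0.00209). In CMT-U309, 3 of 4 channels were well above background on the brighter PLXNA2 probe and 2 of 4 on the dimmer. PLXNB1, the receptor of SEMA4D, had levels of 9.33 in co-culture and 9.19 in monoculture of P114, 11.29 and 11.01 in CMT-U27, and 8.82 and 8.59 in CMT-U309 on its downstream probe. CMT-U27 exceeded CMT-U309 by 2.44 ± 0.14 (SE) (adjusted p = 4.1e-07) on that probe and by 3.61 ± 0.22 (SE) on the middle probe. The upstream PLXNB1 probe, well above background in 8 of 12 channels, gave 0.75 ± 0.35 (SE) and did not pass (adjusted p = 0.113). PLXND1 had 6.40, 6.24 and 6.74 in P114, CMT-U27 and CMT-U309 and did not pass (adjusted p = 0.234). PLXDC2, a membrane protein with a plexin-like domain, was highest in CMT-U309, at 5.62 against 2.60 in P114, where no channel was well above background, and 3.78 in CMT-U27 (adjusted p = 8.76e-05).

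The order of the lines differed among the ephrins and Eph receptors. EPHA1 had levels of 5.82 in co-culture and 5.74 in monoculture of P114, 9.69 and 9.29 in CMT-U27, and 2.93 and 3.55 in CMT-U309, so CMT-U27 stood highest and CMT-U309, with 3 of 4 channels well above background, lowest. CMT-U27 exceeded CMT-U309 by 6.25 ± 0.27 (SE) (adjusted p = 5.19e-08). EPHA2, a receptor often studied in carcinoma cells, was highest in P114 (7.09, against 5.28 in CMT-U27 and 5.96 in CMT-U309, adjusted p = 0.000437). EPHB2 was lower in CMT-U27 (6.42) than in P114 (7.85) and CMT-U309 (7.63, adjusted p = 0.000295). The probes of EPHB3 disagreed in size, since the brighter had levels of 12.55, 13.24 and 12.85 in P114, CMT-U27 and CMT-U309 and the dimmer 4.51, 7.47 and 7.58, with P114 lowest on both. On the dimmer EPHB3 probe, 2 of 4 P114 channels were well above background. EFNA1, the main ligand of EPHA2, had levels of 12.73 in co-culture and 12.81 in monoculture of P114, 11.92 and 12.16 in CMT-U27, and 10.52 and 10.99 in CMT-U309. P114 exceeded CMT-U309 by 2.02 ± 0.14 (SE) (adjusted p = 4.48e-06), and all 3 EFNA1 probes gave the order P114, CMT-U27, CMT-U309 and passed each pairwise test. EFNA5 had the same order, with levels of 5.75 in co-culture and 5.79 in monoculture of P114, 5.22 and 4.81 in CMT-U27, and 3.91 and 2.60 in CMT-U309, but the difference of P114 and CMT-U27 did not pass (adjusted p = 0.117). In CMT-U309, 2 of 4 EFNA5 channels were well above background. EFNB1 was highest in CMT-U309 (6.83, against 5.94 in P114 and 4.98 in CMT-U27, adjusted p = 0.00126).

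Of 4 netrins 2 differed, NTN4 and NTN5, and of 4 netrin receptors 1, UNC5B. NTN4, a basement membrane netrin, was highest in CMT-U309 at 6.85 against 5.69 in P114 and 5.40 in CMT-U27 (adjusted p = 0.000717). Of the netrin receptors, UNC5B was higher in CMT-U27 (5.41) than in P114 (3.86) and CMT-U309 (4.04, adjusted p = 0.0173), where 1 and 2 of 4 channels were well above background, UNC5A had 7.77, 7.38 and 7.56 and did not pass, and DCC and UNC5C had no channel with a usable signal. Neogenin (NEO1), a netrin receptor outside the set, had 10.47 in CMT-U27, 8.06 in CMT-U309 and 5.85 in P114. The CRMP gene DPYSL2 was highest in CMT-U309 at 7.13 and lowest in CMT-U27 at 5.57 (adjusted p = 0.00051), and DPYSL5 had the same order.

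In the comparison of co-culture with monoculture, no guidance gene passed after adjustment, and the probes past the unadjusted thresholds were dim. Of the 63 probes, 2 passed the thresholds of the methods in the higher direction (3.17%, against 1.03% of all probes), an unadjusted p under 0.05 and a change over 2-fold in the mean of the 3 lines, and 0 passed in the lower direction (against 0.191%). An unadjusted p under 0.05 alone was met by 6 probes (9.52%, against 9.94% of all), 4 higher and 2 lower. None passed in limma after Benjamini-Hochberg adjustment, where the smallest adjusted p was 0.498, and 0% of all probes did. The methods' t-test left none after adjustment either, and 3 members at an unadjusted p under 0.05. With the replicate number as a block, which here marks the dye of the co-culture RNA, 13 of 63 probes had an unadjusted p under 0.05, against 15.6% of all probes, and none passed after adjustment (smallest adjusted p = 0.201). That fit takes the 6 arrays as separate values with no term for the line. It thus counts identical RNA more than once, and its p-values do not rest on 3 lines. The median log2 ratio was 0.023 over the 51 genes and 0.002 over all symbols. The 2 arrays of P114 ran against each other across the 63 probes (Pearson r = -0.27, with 22 of 63 probes of the same sign), while r was 0.45 in CMT-U27 (36 of 63) and 0.13 in CMT-U309 (30 of 63). Over all probes of the array r was -0.39 for P114, 0.26 for CMT-U27 and -0.09 for CMT-U309. The direction of each array follows the dyes in the labels, and whether those of P114 hold was not tested. These correlations are across probes, which are not independent replicates. Without P114, which leaves 2 lines, 8 of 63 members passed after adjustment, against 15.6% of all probes, and they were the middle SEMA6C probe, PLXNA4, SEMA3F, EFNB1 and EPHB3 in the higher direction and SLIT1, ROBO3 and EFNA1 in the lower. Other probes of EFNA1, EPHB3 and SLIT1 did not pass. In CMT-U27 and CMT-U309, line means were 0.13 and 0.33, and 0.10 and -0.13, on the other EFNA1 probes. They were -0.03 and 0.06 on the dimmer EPHB3 probe. The other SLIT1 probe, never well above background, had 1.05 and 0.54. ROBO3 had no CMT-U27 co-culture channel well above background.

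**Figure D2:**
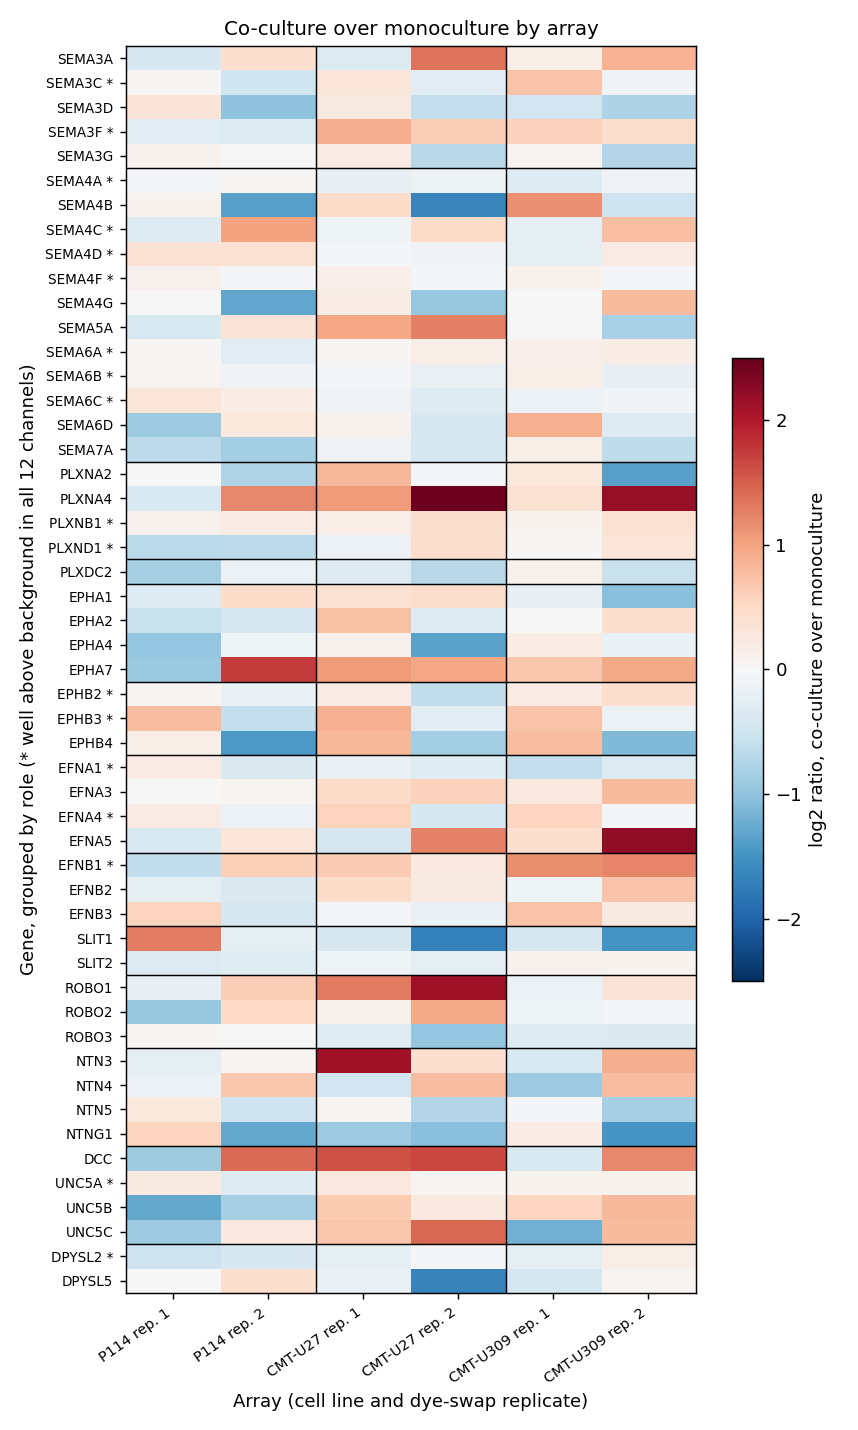
Log2 ratio of co-culture over monoculture (color, red higher) on each of the 6 arrays for the brightest probe of 51 guidance genes, in role groups separated by black lines, with an asterisk where the probe was well above background in all 12 channels. The strongest colors sit in rows without an asterisk, such as PLXNA4 with 2.44 on the CMT-U27 replicate 2 array, and the columns of a dye-swap pair often differ in color.

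The members that passed the thresholds were PLXNA4, a receptor of class 3 and class 6 semaphorins, and the middle probe of SEMA6C, a transmembrane ligand of A-type plexins. PLXNA4 had log2 ratios on replicates 1 and 2 of -0.37 and 1.21 in P114, 1.07 and 2.44 in CMT-U27, and 0.39 and 2.18 in CMT-U309. The ratio was above 0 on 5 of 6 arrays, and each replicate 2 array, with co-culture RNA in Cy3, gave the larger value of its line. None of the 12 channels of PLXNA4 rose well above background, which leaves no fold change to give (adjusted p = 0.498). The middle SEMA6C probe had ratios of -0.51 and 0.28 in P114, 1.56 and 1.43 in CMT-U27, and 1.86 and 2.24 in CMT-U309. It was above 0 on all 4 arrays of CMT-U27 and CMT-U309, and the P114 arrays had opposite signs. It was well above background in 1 of 12 channels, a monoculture channel of CMT-U27, so again no fold change is given (adjusted p = 0.498).

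The other SEMA6C probes were well above background in all 12 channels, and their mean ratios were smaller. The upstream probe had ratios of 0.31 and 0.19 in P114, -0.08 and -0.33 in CMT-U27, and -0.15 and -0.06 in CMT-U309, which lie within -0.33 and 0.31, with a mean of -0.02 ± 0.16 (SE, n = 3 lines). The downstream probe had ratios of -0.42 and 0.18 in P114, 0.60 and 0.83 in CMT-U27, and -0.23 and 0.88 in CMT-U309, and its mean was 0.31 ± 0.19 (SE, n = 3 lines). Neither passed (adjusted p = 0.972 and 0.566). The level of SEMA6C did not pass between lines either, with 7.04, 6.79 and 7.12 in P114, CMT-U27 and CMT-U309 on the upstream probe (adjusted p = 0.334). The call for SEMA6C therefore rests on the dim probe alone.

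**Figure D3:**
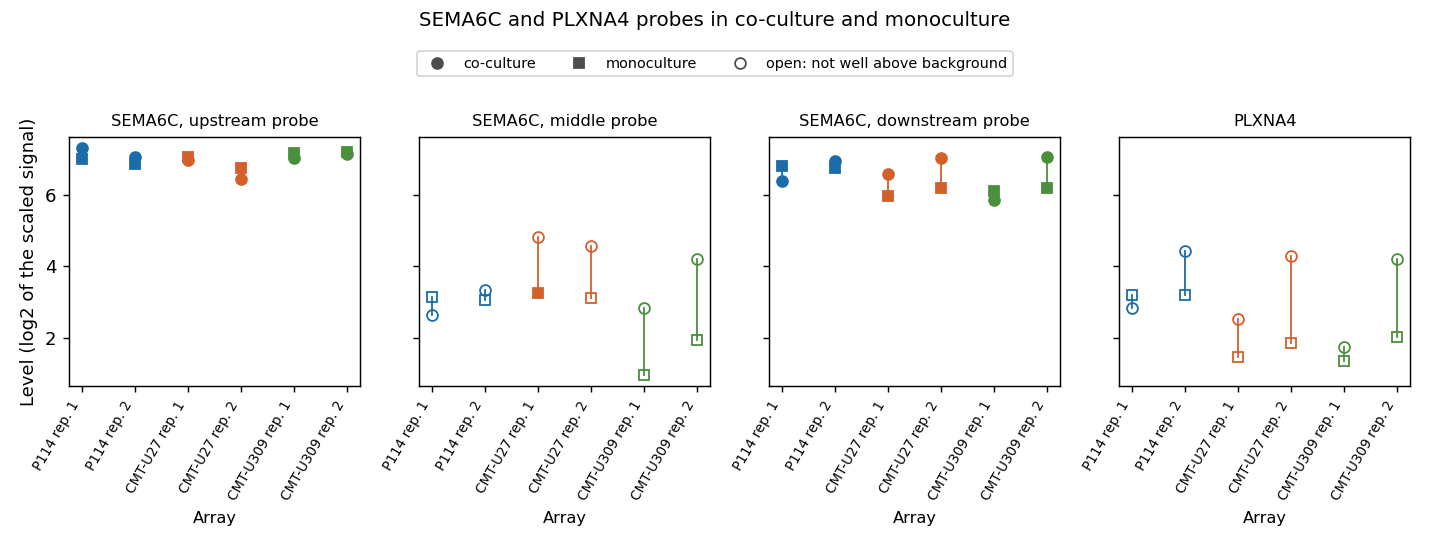
Level (log2 of the scaled signal, vertical axis) of the 3 SEMA6C probes and the PLXNA4 probe on each of the 6 arrays, with circles for co-culture, squares for monoculture and open symbols where the spot was not well above background. Both outer SEMA6C probes are filled throughout, with co-culture and monoculture close together on the upstream probe, while the middle probe is filled in 1 channel and PLXNA4 in none.

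The downstream probe of PLXNB1 had ratios of 0.11 and 0.18 in P114, 0.16 and 0.39 in CMT-U27, and 0.09 and 0.39 in CMT-U309, the only member probe above 0 on all 6 arrays, a pattern met by 2.56% of all probes. The mean was 0.22 ± 0.11 (SE, n = 3 lines) and did not pass (adjusted p = 0.516). The middle PLXNB1 probe had ratios of 1.02 and 1.04 in P114, 0.61 and -0.09 in CMT-U27, and 0.39 and 0.85 in CMT-U309, with a mean of 0.64 ± 0.18 (SE, n = 3 lines), an unadjusted p under 0.05 and an adjusted p of 0.498. The upstream probe had opposite signs on the arrays of each line, 1.95 and -0.75 in P114, 0.21 and -1.32 in CMT-U27, and 0.32 and -1.91 in CMT-U309, and a mean of -0.25 ± 0.29 (SE, n = 3 lines). EFNB1, a ligand of EphB receptors, had ratios of -0.62 and 0.60 in P114, 0.63 and 0.25 in CMT-U27, and 1.17 and 1.21 in CMT-U309. It was above 0 on both arrays of CMT-U27 and CMT-U309 and had opposite signs in P114, and its mean of 0.54 ± 0.24 (SE, n = 3 lines) had an unadjusted p under 0.05 and an adjusted p of 0.498. SEMA3F, with a mean of 0.32 ± 0.20 (SE, n = 3 lines), had ratios of -0.28 and -0.34 in P114, 0.92 and 0.62 in CMT-U27, and 0.58 and 0.44 in CMT-U309, so both P114 arrays were below 0 and the other 4 above. SEMA4C had a mean of 0.26 ± 0.12 (SE, n = 3 lines) and EPHB3 of 0.22 ± 0.11 (SE, n = 3 lines), and the ratio of both changed sign with the dye in all 3 lines.

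On the brightest probe of a gene, the lowest mean ratios among those well above background in all 12 channels were those of EFNA1 at -0.26 ± 0.12 (SE, n = 3 lines), DPYSL2 at -0.21 ± 0.18 (SE, n = 3 lines), SEMA4A at -0.12 ± 0.14 (SE, n = 3 lines), PLXND1 at -0.11 ± 0.20 (SE, n = 3 lines) and SEMA6B at -0.05 ± 0.12 (SE, n = 3 lines). None had an unadjusted p under 0.05. The 22 probes of this kind lay between -0.31 and 0.54, and EFNB1 was the 1 with an unadjusted p under 0.05. The members with an unadjusted p under 0.05 in the lower direction were SEMA7A, with ratios of -0.66 and -0.84 in P114, -0.10 and -0.41 in CMT-U27, and 0.15 and -0.63 in CMT-U309 and a mean of -0.41 ± 0.17 (SE, n = 3 lines), and NTNG1, a membrane-anchored netrin, with ratios of 0.55 and -1.28 in P114, -0.91 and -1.04 in CMT-U27, and 0.18 and -1.47 in CMT-U309 and a mean of -0.66 ± 0.27 (SE, n = 3 lines). SEMA7A was below 0 on 5 of 6 arrays and was well above background in 11 of 12 channels. NTNG1 was below 0 on 4 of 6 arrays and was well above background in 6 of 12 channels.

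**Figure D4:**
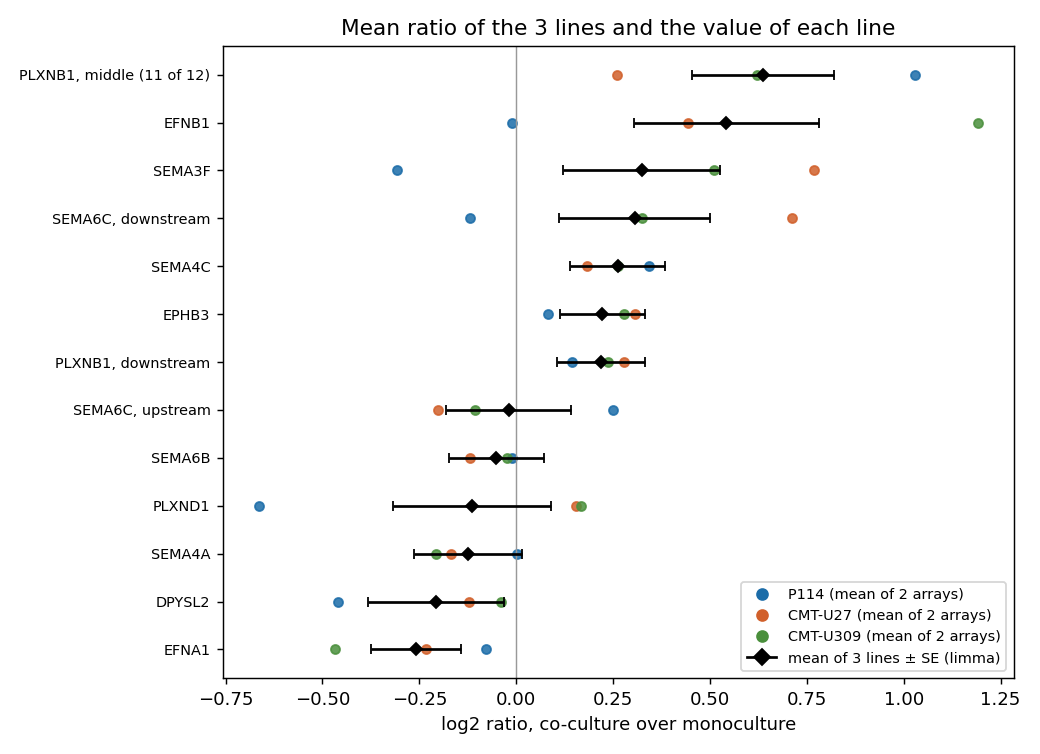
Log2 ratio of co-culture over monoculture (horizontal axis) of the named probes well above background in all 12 channels and of the middle PLXNB1 probe (11 of 12), with colored points for each cell line (mean of 2 arrays) and black diamonds with bars for the mean of 3 lines ± SE from limma. The means span -0.26 for EFNA1 to 0.64 for the middle PLXNB1 probe, and the P114 points of SEMA3F, EFNB1 and PLXND1 lie left of the other lines.

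By role, medians of the brightest probes were 0.03 for 5 secreted and -0.04 for 12 membrane semaphorins, 0.05 for 4 plexins, -0.04 for 4 EphA and 0.02 for 3 EphB receptors, 0.24 for 4 ephrin-A and 0.15 for 3 ephrin-B ligands, 0.08 for 3 Robo receptors, -0.31 for 2 Slit ligands, -0.09 for 4 netrins, 0.12 for 4 netrin receptors, -0.25 for 2 CRMP genes and -0.41 for PLXDC2 alone. These are counts and medians of few probes with no test. Of the 10 myeloid markers tested, which could show RNA of MDSCs, none had an unadjusted p under 0.05. ITGAM, LYZ and SPI1 were at background throughout, and PTPRC was above it in 3 of 12 channels. ITGB2 and S100A8 were above it in all 12, S100A9 in 9, TYROBP in 6, CSF1R in 2 and FCER1G in 1. Both CMT-U27 arrays had higher S100A8 (0.89 and 0.82) and S100A9 (0.84 and 0.76) in co-culture. Line means in P114 and CMT-U309 were -0.20 and -0.39 for S100A8 and -0.69 and -0.91 for S100A9. The summed scaled signal of the 10 markers ran from 218 to 12494 in co-culture and from 259 to 7157 in monoculture. The log2 level of each marker was also averaged over the 4 channels of a line. The log2 of the signal summed over markers was then 13.17 in CMT-U27, 9.21 in P114 and 7.88 in CMT-U309. S100A8 alone had 13.06 in CMT-U27. Of the other markers, 1 of 6 epithelial genes was higher and 1, EPCAM, lower at an unadjusted p under 0.05, 2 of 5 endothelial genes were higher, and none of 8 mesenchymal and 4 neuronal genes passed. Over all 33210 symbols tested, 1871 were higher and 1488 lower at this threshold. These marker lists are too short to set against that share. The part of the marked cell types in the ratios of the guidance genes was not tested.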

How the data were processed

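Gene expression was measured on 6 two-colour arrays. The authors deposited the scanner output, with processed signal intensities of both dyes (background-subtracted, adjusted between dyes), and a table of log10 ratios, which was checked and equals the scanner log10 ratio turned to co-culture over monoculture. Feature Extraction is given as 10.7.3.1 in the labels and 10.10.1.1 in the file headers. From the intensities, all channels were brought to 1 median, outlier spots were left out, probes that never exceeded an intensity of 10 were dropped, and dye-swap arrays were averaged. Log2 ratios (3 lines against 0) and levels (6 values of line and condition, with condition as a covariate) were fitted with limma 3.58.1 in R 4.3.3 with an intensity trend over 40878 probes, and adjusted by Benjamini-Hochberg over all of them. The methods' thresholds were an unadjusted p under 0.05 and a change over 2-fold. Precision is limited by the number of lines. The level fit has 2 residual degrees of freedom a probe. Its p-values set the line differences against the departure of single lines from the condition effect that all lines share. They do not measure a spread between separate cultures of a line. A bound ("at least") sets the brighter group against the lowest signal that passed the background flag, on loess- and Aquantile-normalized values.

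The members, the gene lists and the rule for named genes were chosen with earlier results of these data known. Named were all SEMA6C and PLXNA4 probes, members past the thresholds, 5 genes of highest and 5 of lowest mean ratio among those well above background in 12 channels, the 10 brightest genes and the 12 of widest range between lines. NTNG1, the other PLXNB1 probes and members given to fill a role group were added after their values were seen. A gene is represented by its brightest probe. Of a list of pathway partners outside the set, the neuropilins and NEO1 are given, chosen after their values were seen, and the list as a whole is not reported here. All 54 symbols were found in the RefSeq gene table. Arrays with the same replicate number deviated together (r across probes of 0.36 to 0.58 between lines), and the number marks the dye of co-culture RNA, so a fit with it as a replicate block was run. Alternatives were normexp (offset 50) with loess, the deposited ratios, filters, scaling, no trend, the methods' t-test and arrays or lines left out.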

Additional observations from a re-analysis of the deposited data

Results flagged for a closer look

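In 13 of 63 probes (20.6%, against 22.7% of all probes) both arrays of a line had ratios above 0 and both arrays of another had ratios below 0. The difference between lines was not tested, since each line is 1 replicate. Of the probes well above background in all 12 channels, SEMA3F had a log2 ratio higher in CMT-U27 than in P114 by 1.08 and higher in CMT-U309 than in P114 by 0.82, and PLXND1 was higher in CMT-U309 than in P114 by 0.83. One of the 3 EFNA1 probes was higher than in P114 by 0.49 in CMT-U27 and by 0.69 in CMT-U309, while the brightest EFNA1 probe had no such pattern. The upstream SEMA6C probe was higher in P114 than in CMT-U27 by 0.45 and than in CMT-U309 by 0.36, and SEMA4D was higher in P114 than in CMT-U27 by 0.43. With 11 channels well above background, EPHA1 was higher in CMT-U27 than in CMT-U309 by 1.02, and DPYSL5 was higher in P114 than in CMT-U27 by 1.14. The channel that failed was co-culture of CMT-U309 replicate 2 for EPHA1 (ratio -1.04) and of CMT-U27 replicate 2 for DPYSL5 (ratio -1.67). Both differences thus rest in part on a spot not well above background. The values of the other 6 probes, with 7 channels or fewer, also rest in part or in whole on spots not well above background. Like those of EPHA1 and DPYSL5, they are no measured differences. They were UNC5B (7 of 12 channels; 1.49 for CMT-U27 and 1.72 for CMT-U309 over P114), EFNB3 (7 channels; 0.56 for CMT-U309 over CMT-U27), SLIT2 (5 channels; 0.42 and 0.25 for CMT-U309 over P114 and CMT-U27), ROBO2 (4 channels, none of them in CMT-U27; 0.59 for CMT-U27 over CMT-U309), the dimmer SEMA4F probe (2 channels; 1.72 and 1.34 for CMT-U27 over P114 and CMT-U309) and EFNB2 (0 channels; 0.64 for CMT-U27 over P114).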

How the results depend on the processing

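The 2 calls of the co-culture comparison, PLXNA4 and the middle SEMA6C probe, depended on the processing. Members past the thresholds numbered 0 with normexp and loess, 0 with the t-test of line means, 1 with the deposited ratios and 1 with no intensity trend. Among probes well above background (31 tested) there were also 0, but that filter removed both called probes before the test. The loss of both calls there was thus set in advance and is no separate sign of dependence. Leaving out 1 array gave 0 to 4 and leaving out 1 line 0 to 3, with 0 without P114 replicate 2, without CMT-U27 or without CMT-U309, 1 without CMT-U27 replicate 2 or CMT-U309 replicate 2 (SEMA6C), and 4 without P114 replicate 1 (DCC and EPHA7 being added, neither well above background). The cause was not tested. Members at an unadjusted p under 0.05 numbered 6, against 0 with normexp, 3 with the t-test of line means, 13 with the replicate block, and 1 to 19 with an array or line left out (19 without P114, 1 without CMT-U27). With the replicate block the count was 2, and the block changed no other call at these thresholds. After adjustment no member passed under any setting except without P114. The median over the genes lay between -0.044 and 0.067 under every alternative, within the spread between lines. The member count of the level comparison was 34, lay between 30 and 48 under all alternatives (48 with no scaling, 33 with the replicate block), and the 12 named level differences kept their direction and their call in each. The mean ratio of 4 named probes, none past the thresholds, turned sign. The upstream SEMA6C probe (-0.02) turned to 0.00405 with normexp and lay between -0.154 and 0.0719 with an array or line left out. In the same way EPHB3 (0.22) lay between -0.00485 (without P114 replicate 1) and 0.45, PLXND1 between -0.255 and 0.16 (without P114), and SEMA6B between -0.11 and 0.00812 (without CMT-U309 replicate 2). Signal over background limits the set, since 10 of 66 probes were not measured in any channel, and 3 lines on 3 slides limit the rest.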
